A study of Mus musculus with 9 samples.

Results

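The interferon response genes are a set of 45 mouse genes that encode the type I interferon receptor, the factors that carry its signal to the nucleus and the antiviral proteins that interferons induce. Members were chosen by name from a list of this pathway, and each was read at the probe set that the platform annotation gives a single gene symbol and that had the highest mean over all 9 arrays. On these arrays 43 of the 45 members were measured, through 73 probe sets, among 18194 genes in all. Isg15 and Ifi44 had no probe set with a single symbol and were not analysed here.

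Type I interferons bind a receptor made of Ifnar1 and Ifnar2, whose kinases phosphorylate Stat2. Stat2 joins Irf9 in a complex that enters the nucleus and binds the interferon-stimulated response element. Interferon gamma acts through a different site, the gamma-activated sequence. The induced genes include sensors of viral RNA and DNA, enzymes that stop viral translation or degrade viral RNA, and the large GTPases that attack intracellular pathogens. In bone marrow many of these genes are also read at a basal level without infection, and interferon signalling affects how blood cell precursors divide and mature.

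Expression was measured on 9 Affymetrix arrays of leukemic mouse bone marrow, 3 per group, all of 1 mixed strain background (C57/BL6 X 129). The Af10 floxed leukemias (arrays 4, 5 and 6) were driven by the MLL-AF9 fusion oncogene, carried Af10 floxed on both alleles and received the empty retroviral vector MSCV-IRES-tdTomato. The Af10 deleted leukemias (arrays 4, 5 and 6) had the same fusion and the same floxed alleles but received the vector expressing Cre recombinase. Cells of both groups were transplanted into secondary recipients, and their bone marrow was sorted for tdTomato before RNA was made. The Hoxa9-Meis1 leukemias (arrays 1, 2 and 3) were primary leukemias made by transduction of the transcription factor genes Hoxa9 and Meis1, and were neither sorted nor otherwise treated. Af10, encoded by Mllt10, is a partner of the histone methyltransferase DOT1L, and the comparison asks what its removal changes in established MLL-AF9 leukemia. Cre was present in the deleted group alone, so its own effect and the loss of Af10 cannot be told apart. Against Hoxa9-Meis1, the oncogene, the round of transplantation, the vector and the sort cannot be told apart. For the deleted leukemias Cre and the loss of Af10 add to that list. The promoter that drives Cre is that of a retroviral vector, and the labels do not say that each array is a separate mouse or primary leukemia.

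The response element is what many of these genes share in sequence, so the windows below show where its core lies in 5 members: 3 with differences among the largest of the set (Gbp3, Oas3 and Rsad2) and 2 neighbouring Ifit genes. Each is 60 bases, read 5′ to 3′ along the gene's own strand from RefSeq promoters of GRCm38.p6. Capitals mark a match to the core GAAANNGAAA or its reverse complement TTTCNNTTTC.

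Gbp3, chr3:142559977-142560036, plus strand, 67 to 8 bases before the start: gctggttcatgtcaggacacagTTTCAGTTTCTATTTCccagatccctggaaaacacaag

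Oas3, chr5:120777700-120777759, minus strand, 100 to 41 bases before the start: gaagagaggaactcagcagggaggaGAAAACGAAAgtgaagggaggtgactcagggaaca

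Rsad2, chr12:26456538-26456597, minus strand, 145 to 86 bases before the start: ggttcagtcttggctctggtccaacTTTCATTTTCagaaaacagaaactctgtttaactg

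Ifit1, chr19:34640769-34640828, plus strand, 120 to 61 bases before the start: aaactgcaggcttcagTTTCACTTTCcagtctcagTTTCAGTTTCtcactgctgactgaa

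Ifit3, chr19:34583365-34583424, plus strand, 164 to 105 bases before the start: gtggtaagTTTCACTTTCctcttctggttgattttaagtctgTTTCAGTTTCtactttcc

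Both strands of the 250 bases before each start were searched, and overlapping matches were counted. The table held promoters of 34 of the 45 members, 40 promoters in all. The core stood in 13 of the 40 member promoters (32.5%) and in 2.98% of all 32851 promoters. Members that held it were Bst2, Gbp2, Gbp3, Ifit1, Ifit3, Igtp, Irgm1, Isg15, Oas3, Rsad2, Socs1, Stat2 and Trim30a. The gamma-activated sequence TTCNNNGAA stood in 7 member promoters (17.5%), against 7.02% of all, in Bst2, Eif2ak2, Ifit2, Ifnar2, Igtp, Irf1 and Samhd1. A match is a description of these letters and not a site known to be bound here.

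The label of the samples was checked first. All 9 markers of leukemic myeloid cells lay above the array background in each group. In deleted minus floxed 6 of the 9 log2 differences were above 0 and 3 below, with a median of 0.19. By the test 2 of the 9 fell in deleted against floxed leukemias and 0 rose. Of all genes 3.63% fell and 3.22% rose at a limma adjusted p under 0.05. Cd34, a surface protein of blood cell precursors, was at 6.93, 6.49 and 6.25 on deleted and at 9.16, 11.06 and 10.14 on floxed arrays, 11.8-fold lower (limma adjusted p = 0.00308). Kit, a growth factor receptor of such cells, fell by 0.96 on the log2 scale (limma adjusted p = 0.0415), a call lost without any 1 deleted or floxed array or Hoxa9-Meis1 array 1 (0.0558 to 0.113). Whether the members' values moved with these markers was not tested. Mllt10 fell at all 4 of its probe sets in the deleted leukemias, by 0.76 to 1.05 on the log2 scale (limma adjusted p from 0.00105 to 0.0328, each probe set tested on its own). Array medians in intensity were 145.9 to 146.4 on deleted, 151.5 to 152.9 on floxed and 152.2 to 156.0 on Hoxa9-Meis1 arrays. Floxed array 5 had the widest difference between 3' and 5' Gapdh controls, which widens in degraded RNA, at 1.03, against 0.44 to 0.81 on the other 8 arrays. At the actin controls its difference was -0.37, within the range of -0.41 to -0.34 over all 9 arrays. Genes on chromosome 1 sat a median of 0.10 above their group mean on deleted array 6, and Sp100 is the only member there. Levels below are log2(intensity + 1), errors after ± are SD over 3 arrays, and a gene was called when its limma adjusted p, over all 18194 genes, was under 0.05. The array background, gauged by 9 Y-linked probe sets, lay between 2.97 and 4.71. Iigp1 was within that range on all 9 arrays, Ifit1 on 8, and Usp18 and Gbp2 on 1 each, so their differences carry little information.

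The comparison of deleted with floxed leukemias asks how the interferon genes stood after Cre deletion of Af10. Of the 43 measured members Gbp6 rose, and Mx1 and Ifnar2 fell. That is 1 of 43 called higher, against 3.22% of all genes, and 2 of 43 called lower, against 3.63%, so the members' calls were near the background in both directions. The difference was below 0 for 31 members, with a median of -0.22, where the median of all genes was 0.06. On 2 members the deleted arrays all lay above the floxed ones (15.1% of all genes), and on 6 all below (10.7% of all genes). The 95% interval of the difference stayed within 2-fold either way for 25 of the 43 members and for 14804 of all 18194 genes. For the other 18 members a change of more than 2-fold is not excluded by these arrays.

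**Figure D1:**
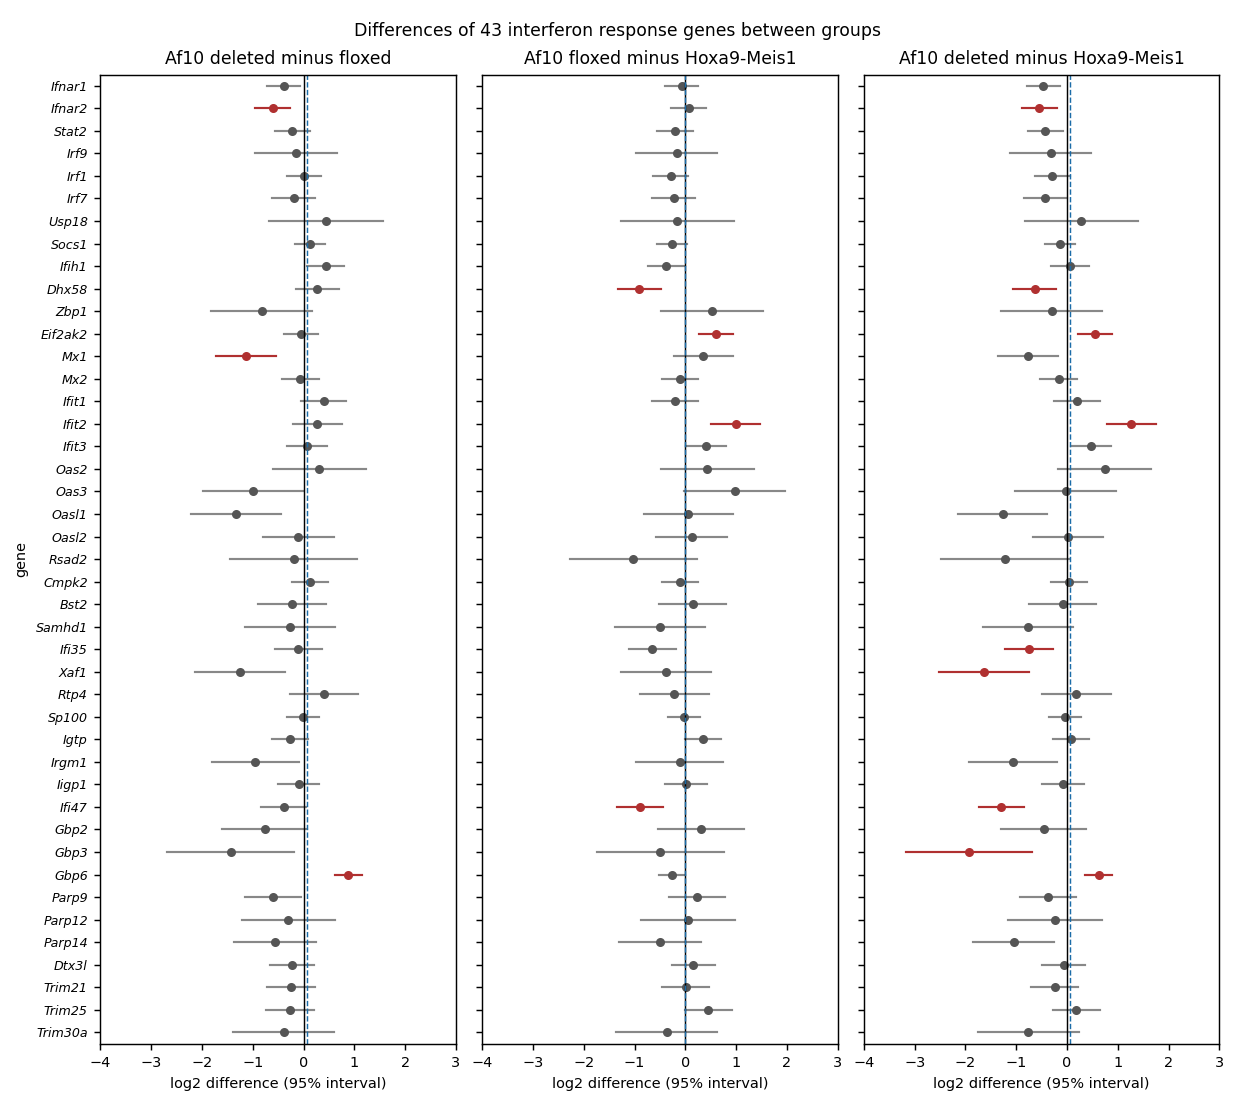
Fitted log2 difference of each of the 43 members with its 95% interval, in 3 panels for Af10 deleted minus floxed, floxed minus Hoxa9-Meis1 and deleted minus Hoxa9-Meis1 (horizontal axis, log2 units; genes ordered by role). Red points are called members and the dashed line is the median of all genes; Gbp6 stands furthest to the right in the first panel, at 0.88, and Gbp3 furthest to the left in the third, at -1.93.

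Among receptors and signal transducers, Ifnar2, a chain of the type I interferon receptor, fell in the deleted leukemias. Ifnar2 was at 11.74, 11.81 and 11.35 on deleted arrays 4, 5 and 6, at 12.04, 12.40 and 12.28 on the floxed arrays, and at 12.09, 12.19 and 12.26 in Hoxa9-Meis1 leukemias. All 3 deleted arrays lay below every array of the other groups, with array 6 the lowest. It fell by 0.61 on the log2 scale against floxed (SE 0.15, 1.53-fold, limma adjusted p = 0.0439). The call ended in 13 of 20 alternatives, among them the removal of any 1 array other than floxed array 4 (limma adjusted p from 0.0564 to 0.139). The other Ifnar2 probe sets differed by 0.02 and by -0.71 and were not called. Ifnar1, the other receptor chain, was at 9.17 ± 0.08 on deleted and 9.56 ± 0.22 on floxed arrays, which did not overlap either (difference -0.39, limma adjusted p = 0.155). In the RefSeq order of chromosome 16 these genes lie beside Il10rb and Ifngr2, which encode chains of related cytokine receptors. Il10rb fell by 0.71 (limma adjusted p = 0.0441), a call that ended without any 1 array other than floxed array 4 (0.0508 to 0.145). Ifngr2 differed by 0.09 and was not called. The median difference of the 592 genes of chromosome 16 was 0.06.

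Stat2, Irf9, Irf1 and Irf7, the transcription factors of the response, were not called, with differences of -0.22, -0.15, 0.00 and -0.20. The intervals of all 6 members of this role group lay within 2-fold either way. Usp18 and Socs1, which switch the receptor off, differed by 0.44 and 0.12 without a call. Usp18 varied most among floxed arrays, at 4.07, 4.84 and 6.25, a span wider than its difference between the groups.

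Of the 4 nucleic acid sensors 0 were called in this comparison by limma and 1 had an unadjusted p under 0.05. Ifih1, a sensor of long viral RNA, was at 8.48, 8.59 and 8.37 on deleted and 7.69, 8.23 and 8.20 on floxed arrays. Its groups did not overlap, and the difference was 0.44 (limma adjusted p = 0.151). Dhx58, a regulator of that sensor, Zbp1, which senses nucleic acid in the Z form, and Eif2ak2, the kinase that stops translation on viral RNA, differed by 0.27, -0.83 and -0.05.

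Mx1, a dynamin-like GTPase that blocks viral nucleocapsids in strains with an intact gene, was the other member that fell. RefSeq lists Mx1 and Mx2 of the C57BL/6J reference as transcribed pseudogenes. Mx1 was at 6.10, 6.04 and 6.52 on the deleted arrays, 6.81, 7.71 and 7.56 on the floxed arrays and 6.83, 6.78 and 7.38 in Hoxa9-Meis1 leukemias. Every deleted array was below every array of the other 2 groups. Mx1 fell 2.20-fold against floxed (difference -1.14, SE 0.26, limma adjusted p = 0.0346). The call ended in 9 of 20 alternatives, among them without deleted array 4 or 5, floxed array 5 or 6 or Hoxa9-Meis1 array 1 (limma adjusted p from 0.0562 to 0.122). Mx2, at 5.11 ± 0.07 on deleted arrays and 5.18 ± 0.24 on floxed ones, was not called.

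Of the 3 Ifit genes, whose proteins bind foreign RNA ends, and the 4 Oas genes, whose proteins make the 2'-5' oligoadenylates that activate RNase L or resemble those enzymes, 0 were called by limma (0 and 2 with an unadjusted p under 0.05). Ifit1, Ifit2 and Ifit3 differed by 0.39, 0.27 and 0.07. Oasl1, a translation regulator of this family, was at 5.45, 5.91 and 5.38 on deleted arrays and at 6.77, 6.77 and 7.21 on floxed arrays. These groups did not overlap, and the difference was -1.33 (SE 0.39, limma adjusted p = 0.0802). It passed with only these groups in the fit (0.0155) and without Hoxa9-Meis1 array 3 (0.00541), whose value of 5.80 lay far from 7.43 and 7.32 on the other arrays of its group. Oas3 was at 7.18, 7.81 and 6.10 on deleted arrays and at 7.35, 8.06 and 8.66 on floxed arrays. The groups overlapped, and the difference of -0.995 was not called (SE 0.44, limma adjusted p = 0.225). Oas2 and Oasl2 differed by 0.31 and -0.11.

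Among the other antiviral effectors Xaf1, an inducible antagonist of apoptosis inhibitors, had the widest difference. It was at 7.15, 8.51 and 6.98 on deleted arrays and at 8.33, 8.93 and 9.16 on floxed arrays. Deleted array 5 stood above floxed array 4, so the groups overlapped. The difference was -1.26 (SE 0.39, limma adjusted p = 0.0962), and it passed without deleted array 5 (-1.74, limma adjusted p = 0.0123). The remaining 7 members, Rsad2, Cmpk2, Bst2, Samhd1, Ifi35, Rtp4 and Sp100, differed by between -0.27 and 0.40 and were not called.

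Gbp6, a guanylate-binding protein of the family that attacks pathogen vacuoles, rose in the deleted leukemias. It was at 5.76, 5.61 and 5.95 on deleted arrays, at 4.96, 4.91 and 4.81 on floxed arrays and at 5.12, 5.21 and 5.13 in Hoxa9-Meis1 leukemias. All deleted arrays were above all others, and the floxed arrays were the lowest. The probe set was dim, with a mean of 5.27 over all 9 arrays, beside 5.25 for Usp18 and 5.28 for Gbp2. Its floxed arrays lay just above the top of the background range, 4.71. The difference was 0.88 (SE 0.12, 1.84-fold, limma adjusted p = 0.00285), and no array left out ended the call. The second Gbp6 probe set rose as well, by 1.33 (limma adjusted p = 0.0115), although its floxed arrays were at 3.66, 3.71 and 4.01, within the background range.

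The other immunity GTPases were not called. Gbp3 was at 8.58, 8.35 and 6.44 on deleted arrays and at 8.81, 10.11 and 8.78 on floxed arrays. The groups did not overlap, but deleted array 6 and floxed array 5 each stood far from their own group, and the difference of -1.44 was not called (SE 0.55, limma adjusted p = 0.165). Gbp2 averaged 4.87 ± 0.47 on deleted and 5.64 ± 0.64 on floxed arrays, also without overlap (limma adjusted p = 0.267). Irgm1, Ifi47, Igtp and Iigp1 differed by -0.96, -0.39, -0.27 and -0.10. Of the 7 immunity GTPases 6 had a difference below 0 and 1, Gbp6, had a difference above 0.

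The ADP-ribosyltransferases Parp9, Parp12 and Parp14 and the ubiquitin ligase Dtx3l, which acts as a partner of Parp9, differed by -0.60, -0.30, -0.56 and -0.23, and those of the Trim ubiquitin ligases Trim21, Trim25 and Trim30a by -0.25, -0.27 and -0.39. All 7 values were below 0, and 0 passed the test in limma, where 1 had an unadjusted p under 0.05. Of the 43 members 11 had an unadjusted p under 0.05, as did 4018 of all 18194 genes.

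**Figure D2:**
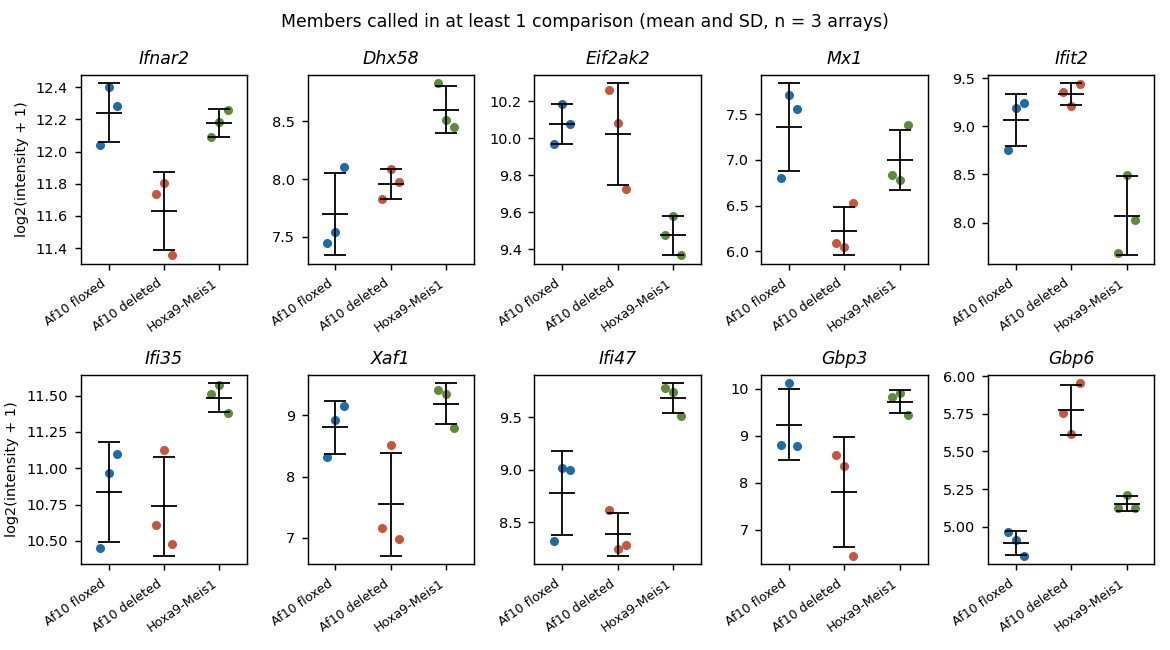
Level of each of the 10 members called in at least 1 comparison (vertical axis, log2(intensity + 1), with its own scale per gene) on the 3 arrays of each group; points are arrays, the long line is the mean and the bars are 1 SD. The deleted arrays of Gbp6 (5.61 to 5.95) lie above all others, and those of Mx1 (6.04 to 6.52) and Ifnar2 (11.35 to 11.81) lie below all others.

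Comparison of floxed with Hoxa9-Meis1 leukemias asks how the pathway differs between leukemias of MLL-AF9 and of Hoxa9 and Meis1. Ifit2 and Eif2ak2 were higher and Dhx58 and Ifi47 lower in the floxed MLL-AF9 leukemias. That is 2 of 43 members called higher, against 5.58% of all genes, and 2 called lower, against 3.31%. The median difference was -0.10, with 24 members below 0, and the median of all genes was -0.01. The floxed arrays all lay above Hoxa9-Meis1 for 4 members (15.4% of all genes) and all below for 6 (12.1% of all genes). The interval lay within 2-fold for 28 members and for 14655 of all 18194 genes.

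Ifit2, which promotes apoptosis and binds foreign RNA, was at 8.76, 9.19 and 9.24 on floxed arrays and at 7.68, 8.50 and 8.03 in Hoxa9-Meis1 leukemias. The groups did not overlap, and Ifit2 was 1.99-fold higher in floxed leukemias (difference 0.99, SE 0.21, limma adjusted p = 0.0215). The call ended without floxed array 5 or 6 or Hoxa9-Meis1 array 1 (0.0623 to 0.0748). Eif2ak2, the kinase PKR, was at 9.97, 10.19 and 10.08 on floxed arrays and at 9.47, 9.58 and 9.37 in Hoxa9-Meis1 leukemias. Every floxed array was above every Hoxa9-Meis1 array. Eif2ak2 was higher by 0.60 (SE 0.15, 1.52-fold, limma adjusted p = 0.0380). The call ended without deleted array 5 or any 1 floxed or Hoxa9-Meis1 array (0.0588 to 0.117), and its other probe sets differed by 0.27 and 0.38 without a call.

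Dhx58, the RNA helicase LGP2, was at 7.44, 7.54 and 8.10 on floxed arrays and at 8.83, 8.51 and 8.46 in Hoxa9-Meis1 leukemias. All floxed arrays were lower, with array 6 nearest to the other group. Dhx58 was lower by 1.87-fold (difference -0.90, SE 0.19, limma adjusted p = 0.0191). The call ended without floxed array 4 or 5 or Hoxa9-Meis1 array 1 or 2 (0.0530 to 0.0808), and the other probe sets differed by -0.48 and -0.16 without a call. Ifi47, an immunity-related GTPase, was at 8.32, 9.02 and 9.002 on floxed arrays and at 9.78, 9.74 and 9.51 in Hoxa9-Meis1 leukemias. The groups did not overlap, and Ifi47 was 1.86-fold lower in floxed leukemias (difference -0.90, SE 0.20, limma adjusted p = 0.0252). The call ended without Hoxa9-Meis1 array 1 or 2 (0.0983 and 0.0861).

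Wide differences in this comparison could rest on single arrays. Rsad2, the antiviral enzyme viperin, was at 9.78, 7.79 and 7.33 on the Hoxa9-Meis1 arrays and at 7.14, 7.44 and 7.24 on floxed arrays. Hoxa9-Meis1 array 1 stood far above all others, the groups overlapped, and the difference of -1.03 was not called (SE 0.55, limma adjusted p = 0.307). That array was also the highest at both other Rsad2 probe sets, at 7.73 and 6.50. Oas3, whose floxed values are given above, was at 7.08, 7.34 and 6.76 in Hoxa9-Meis1 leukemias. The floxed arrays were all higher, but the difference of 0.97 was not called (SE 0.44, limma adjusted p = 0.220). Ifi35, an adaptor of the response, differed by -0.65 (limma adjusted p = 0.0917), also without overlap. The receptors, Mx, Oas, Parp and Trim groups held 0 called members in limma here and 0 with an unadjusted p under 0.05, whereas 7 of the 43 members had an unadjusted p under 0.05, as did 4344 of all 18194 genes.

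Comparison of deleted with Hoxa9-Meis1 leukemias shares its arrays with both comparisons above, so the values of the members are set side by side and no agreement between comparisons is drawn from them. In the deleted leukemias Ifit2, Eif2ak2 and Gbp6 were higher, and Ifnar2, Dhx58, Ifi35, Xaf1, Ifi47 and Gbp3 were lower. The 3 of 43 members called higher stood against 9.27% of all genes, and the 6 called lower (14%) against 6.23%. The median difference was -0.24, with 30 members below 0, and that of all genes 0.05. Arrays did not overlap for 4 members that were higher (21.7% of all genes) and for 12 that were lower (13.2% of all genes). Of the 43 members 17 had an unadjusted p under 0.05, as did 5219 of all 18194 genes. The interval lay within 2-fold for 23 members and for 14159 of all genes.

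Ifit2, Ifi47 and Gbp6 kept their calls under every alternative run in this comparison. Ifit2 was at 9.35, 9.21 and 9.44 on the deleted arrays, all above the Hoxa9-Meis1 arrays given above. It was 2.40-fold higher (difference 1.26, SE 0.21, limma adjusted p = 0.00471). Ifi47 was at 8.62, 8.25 and 8.29 on the deleted arrays, below every Hoxa9-Meis1 array. It was 2.45-fold lower (difference -1.29, SE 0.20, limma adjusted p = 0.00330). Gbp6 was higher by 0.62 (SE 0.12, 1.54-fold, limma adjusted p = 0.00767), and by 1.36 at its second probe set (0.00486), where the Hoxa9-Meis1 arrays were at 3.66, 3.70 and 3.95, within the background range. The filter on genes with a mean under 6 leaves Gbp6 out and gave it no value.

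The calls of the other 6 members each ended when single arrays were left out. Xaf1 was at 9.41, 9.35 and 8.80 in Hoxa9-Meis1 leukemias, above all 3 deleted arrays. It was lower by 3.12-fold (difference -1.64, SE 0.39, limma adjusted p = 0.0230), but not called without deleted array 4 or 6 or Hoxa9-Meis1 array 1 or 2 (0.0678 to 0.0860). The other Xaf1 probe set differed by -1.06 and was not called. Gbp3 was at 9.82, 9.91 and 9.45 in Hoxa9-Meis1 leukemias, above all deleted arrays. It was lower by 3.81-fold (difference -1.93, SE 0.55, limma adjusted p = 0.0449). Without deleted array 6 the difference was -1.26 (0.0694), and the removal of deleted array 5, floxed array 4 or 6 or any Hoxa9-Meis1 array ended the call too (0.0554 to 0.129).

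Ifi35 was at 10.61, 11.12 and 10.48 on deleted, 10.45, 10.97 and 11.10 on floxed and 11.51, 11.57 and 11.38 on Hoxa9-Meis1 arrays. All Hoxa9-Meis1 arrays were the highest, and in deleted leukemias Ifi35 was lower by 0.75 (SE 0.21, 1.68-fold, limma adjusted p = 0.0414). Without deleted array 4 or 6, floxed array 5 or any Hoxa9-Meis1 array it was not called (0.0510 to 0.126). Ifnar2 was lower by 0.55 (SE 0.15, limma adjusted p = 0.0394), a call lost without deleted array 4 or 6, floxed array 6 or any Hoxa9-Meis1 array (0.0574 to 0.111). Eif2ak2, at 10.26, 10.08 and 9.72 on deleted arrays, was higher by 0.55 (SE 0.15, limma adjusted p = 0.0380), a call lost without deleted array 4 or 5, floxed array 6 or any Hoxa9-Meis1 array (0.0561 to 0.118). Dhx58, at 7.83, 8.09 and 7.97 on deleted arrays, was lower by 0.64 (SE 0.19, limma adjusted p = 0.0494), a call lost without any 1 deleted or Hoxa9-Meis1 array or floxed array 5 (0.0551 to 0.171). The deleted arrays of all 4 genes lay on 1 side of the Hoxa9-Meis1 arrays. The other probe sets of these genes were not called. They differed by -0.36 and -0.76 for Ifi35 and by -0.46 and -0.78 for Ifnar2. For Eif2ak2 they differed by 0.09 and 0.33, and for Dhx58 by -0.18 and -0.41.

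Other members with wide differences, or set apart by their arrays, did not pass. All 6 receptors and transducers had a difference below 0 (-0.55 to -0.29), and among them only the arrays of Irf9 overlapped. Of these Ifnar1 was at -0.46 (limma adjusted p = 0.0632), Stat2 at -0.43 (0.102) and Irf7 at -0.43 (0.166). Mx1 was at -0.78 (limma adjusted p = 0.0793) and Parp14 at -1.05 (0.0816), each with all deleted arrays below. Oasl1 was at -1.27 (SE 0.39, limma adjusted p = 0.0579). Its groups overlapped, with deleted array 5 at 5.91 above Hoxa9-Meis1 array 3 at 5.80. It passed without that Hoxa9-Meis1 array (-1.79, limma adjusted p = 0.00118). Ifit3 was the only member besides the called ones whose deleted arrays were all above (0.47, limma adjusted p = 0.108).

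**Figure D3:**
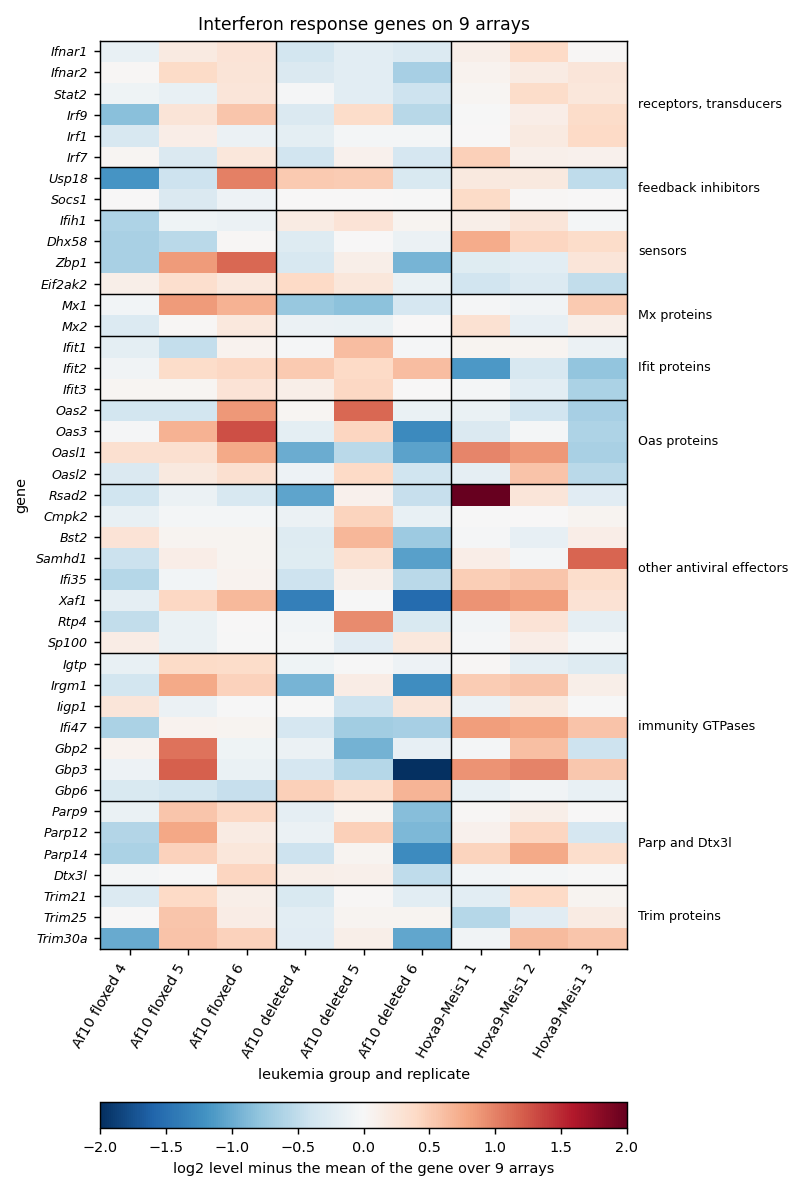
Level of the 43 members on the 9 arrays (columns, in group order) as the difference from the gene's mean over all arrays (colour, log2 units, red above and blue below), with genes in rows grouped by role. Floxed array 4 and deleted array 6 are the bluest columns of their groups (lowest of the group for 32 and 28 of 43 members), and Rsad2 on Hoxa9-Meis1 array 1 is the darkest red.

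Within each group the members tended to be high or low on the same array. Floxed array 4 alone held the lowest value of its group for 32 of 43 members (74.4%), against 26.9% of all genes. A further 2 members had their lowest floxed value tied between arrays and were not counted for any array. Deleted array 6 held the lowest for 28 (65.1%, against 34.9% of all genes), and deleted array 5 the highest for 27 (62.8%, against 29.0%). In Hoxa9-Meis1 leukemias array 3 held the lowest for 26 members (60.5%, against 41.0%).

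The median of the members' deviations from their group mean was -0.29, 0.12 and 0.18 on floxed arrays 4, 5 and 6. On deleted arrays 4, 5 and 6 it was -0.02, 0.26 and -0.21, and on the Hoxa9-Meis1 arrays -0.02, 0.08 and -0.12. Over all genes the same median lay between -0.04 and 0.03 on every array, so the spread of the members between arrays of 1 group was as wide as their median difference between groups. By role the median of Parp9, Parp12, Parp14 and Dtx3l was 0.48 on deleted array 5 and -0.62 on deleted array 6. The Oas genes were at 0.61 and -0.42 on the same arrays, and the immunity GTPases at -0.13 and -0.03. The cause of the spread was not tested. Members are not independent, and these counts describe 9 arrays.

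**Figure D4:**
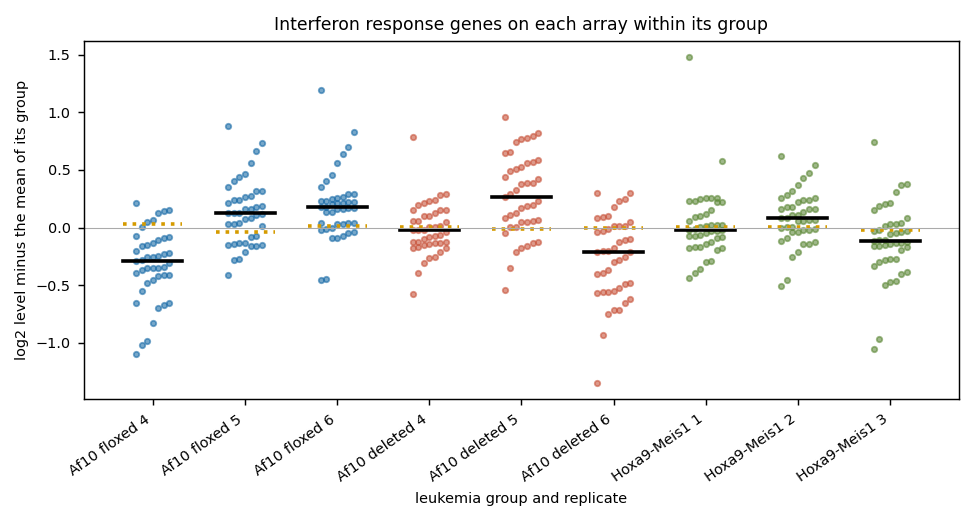
Deviation of each of the 43 members from the mean of its group (vertical axis, log2 units) on each of the 9 arrays; each point is a gene, the black line is the median of the members and the dotted line that of all genes. The black line is lowest on floxed array 4 (-0.29) and highest on deleted array 5 (0.26), while the dotted line stays between -0.04 and 0.03.

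The promoters of 32 of the 43 measured members were searched, and those of the called members Mx1, Gbp6 and Dhx58 were not. In deleted minus floxed, the 12 measured members with the core had a median of -0.25 and 0 were called by limma, and the 20 without it had a median of -0.21 with 1 called. Against Hoxa9-Meis1 the medians were -0.15 and -0.05 for floxed leukemias, with 0 and 3 called, and -0.28 and -0.26 for deleted leukemias, with 1 and 6 called. Among the called members whose promoters were searched, Gbp3, with its overlapping matches shown above, was the 1 that held the core. The difference between members with and without the core was not tested.

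Other genes of the pathway were read beside the members. Of all genes 3.22% were called higher and 3.63% lower in deleted minus floxed. These shares were 5.58% and 3.31% in floxed minus Hoxa9-Meis1, and 9.27% and 6.23% in deleted minus Hoxa9-Meis1. Of 13 interferon ligand genes 8 were measured, and 0 were called by limma in any of the 3 comparisons, with 2, 0 and 0 at an unadjusted p under 0.05. Ifnb1 was at 5.37 ± 0.04 in deleted, 5.15 ± 0.28 in floxed and 5.31 ± 0.23 in Hoxa9-Meis1 leukemias, and Ifna2 and Ifna4 were within the background range on all 9 arrays. Of 17 measured other receptors, kinases and transducers, Il10rb and Irf8 fell in deleted against floxed leukemias and 0 rose. Irf8, a transcription factor of monocytes and dendritic cells, was at 9.28, 9.69 and 9.07 on deleted and at 11.27, 10.78 and 11.62 on floxed arrays. It fell 3.67-fold (limma adjusted p = 0.0151), and by 1.87 on the log2 scale against Hoxa9-Meis1 (0.00812). The first call was lost without deleted array 4 (0.0538). In floxed against Hoxa9-Meis1 leukemias Ifnlr1, the interferon lambda receptor chain, and Ptpn11, the phosphatase Shp2, were higher by 0.97 and 0.77 (limma adjusted p = 0.0117 and 0.0120) and 0 were lower. The call of Ptpn11 was lost without Hoxa9-Meis1 array 1 or 2 (0.0506 to 0.0555). In deleted against Hoxa9-Meis1 leukemias Il10rb was also lower, by 0.75 (limma adjusted p = 0.0212), a call lost without any 1 Hoxa9-Meis1 array (0.0546 to 0.0626). Ifnlr1 was higher there by 0.64 (limma adjusted p = 0.0406), a call lost without deleted array 4 or 5, floxed array 4 or any 1 Hoxa9-Meis1 array (0.0554 to 0.130).

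Of 14 measured genes that sense infection upstream of interferon, Ikbke and Tlr4 rose in deleted against floxed leukemias and 0 fell. Of the 14 differences 9 were above 0 and 5 below. An unadjusted p under 0.05 was found for 12 of the 14, and for 4018 of all 18194 genes. Ikbke, a kinase that activates Irf3 and Irf7, was at 9.96, 10.13 and 10.45 on deleted arrays and at 8.39, 7.30 and 8.51 on floxed arrays. The groups were far apart, and Ikbke rose 4.33-fold (difference 2.12, SE 0.31, limma adjusted p = 0.00506) with no array left out ending the call. Tlr4, the receptor of bacterial lipopolysaccharide, rose 2.73-fold (limma adjusted p = 0.0298), a call lost without any 1 deleted array, floxed array 4 or 5 or Hoxa9-Meis1 array 1 (0.0527 to 0.114). In deleted against Hoxa9-Meis1 leukemias Ikbke and Unc93b1, a transporter of nucleic acid receptors, were higher and Aim2, a sensor of DNA, was lower (limma adjusted p = 0.0180, 0.0227 and 0.0251). The call of Ikbke was lost without deleted array 6 or Hoxa9-Meis1 array 2 (0.0562 and 0.0664), and those of Unc93b1 and Aim2 without deleted array 4 or 5 or Hoxa9-Meis1 array 1 or 2 (0.0529 to 0.0955). In floxed against Hoxa9-Meis1 leukemias 0 of the 14 were called by limma and 2 had an unadjusted p under 0.05.

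Of 57 measured genes induced by interferons outside the 45, 4 rose in deleted against floxed leukemias and 1 fell. These counts stood against 3.22% and 3.63% of all genes. Ube2l6, the enzyme that conjugates Isg15 to its targets, was at 8.31, 8.54 and 8.50 on deleted, 7.09, 6.59 and 6.62 on floxed and 6.28, 6.29 and 6.13 on Hoxa9-Meis1 arrays. The deleted arrays were all far above the rest, and Ube2l6 rose 3.22-fold against floxed (difference 1.68, SE 0.15, limma adjusted p = 0.000401) with the call kept in all 20 alternatives. Sp110, a nuclear body protein, rose 2.28-fold (limma adjusted p = 0.00574) and Znfx1, an RNA helicase that senses viral RNA, rose 2.61-fold (0.00871). No single array left out ended either of these calls, but both were lost without deleted array 6 and floxed array 5 together (0.0676 and 0.0648). Cxcl10, a chemokine that attracts T cells, was at 8.07, 7.15 and 9.39 on deleted and 5.94, 5.46 and 6.05 on floxed arrays. It rose 5.23-fold (limma adjusted p = 0.0205), a call lost without deleted array 4 or floxed array 5 (0.0563 to 0.0880). Ly6e, a membrane protein that restricts viruses, fell by 0.71 (limma adjusted p = 0.0205), a call lost without any 1 deleted array (0.0516 to 0.0678).

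In the same list Lgals3bp, a secreted glycoprotein, was at 11.18, 11.24 and 9.79 in Hoxa9-Meis1 leukemias, at 7.56, 7.67 and 7.70 on floxed and at 7.51, 8.50 and 7.45 on deleted arrays. It was 8.52-fold lower in floxed (limma adjusted p = 0.00235) and 7.53-fold lower in deleted leukemias (0.00174), with both calls kept in every alternative run. Isg20, an exonuclease, and Cd274, which encodes PD-L1, were also lower and Sp110 was higher in floxed than in Hoxa9-Meis1 leukemias. These calls were lost without floxed array 5 or Hoxa9-Meis1 array 1 or 2 for Isg20 (0.0502 to 0.0641), without floxed array 4 or 6 or Hoxa9-Meis1 array 1 for Sp110 (0.0681 to 0.0693), and without any 1 array other than deleted 5 or 6 for Cd274 (0.0552 to 0.131). In deleted against Hoxa9-Meis1 leukemias 4 of the 57 were higher (Ube2l6, Sp110, Znfx1 and Cxcl10) and 6 lower (Lgals3bp, Rnf213, Casp1, Ms4a4c, Ms4a6b and Ly6e). Of these, Ube2l6, Sp110, Znfx1 and Lgals3bp kept their calls with any 1 array left out. Cxcl10 lost it without Hoxa9-Meis1 array 2 (0.0548). Rnf213 lost it without deleted array 5 or 6 or Hoxa9-Meis1 array 1 or 2 (0.0545 to 0.118), Casp1 without deleted array 4 or 6 or any Hoxa9-Meis1 array (0.0660 to 0.111), and Ms4a6b without deleted array 4 or 6 or Hoxa9-Meis1 array 2 or 3 (0.0529 to 0.0799). Ly6e lost it without any 1 deleted array or Hoxa9-Meis1 array 2 or 3 (0.0877 to 0.136), and Ms4a4c without any 1 deleted or Hoxa9-Meis1 array or floxed array 5 (0.0531 to 0.116). The median difference of the 57 was 0.16, -0.02 and 0.10 in the 3 comparisons, beside -0.22, -0.10 and -0.24 for the 43 members.

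Markers of other cells that make or answer interferon were read in the same samples. Beside the counts below, 3.22% of all genes were called higher and 3.63% lower in deleted against floxed leukemias. Plasmacytoid dendritic cells are a main source of type I interferon, and the summed intensity of their 8 markers was 3541 to 5494 on deleted, 12810 to 14133 on floxed and 7276 to 8803 on Hoxa9-Meis1 arrays. In deleted against floxed leukemias 3 of the 8 fell (Cox6a2, Tcf4 and Irf8, the latter also counted above) and 0 rose. These 3 had the highest means of the 8 on floxed arrays, so the sum mainly follows them. Of the 8 differences 3 were above 0 and 5 below. Ly6d differed by 0.61, with all deleted arrays above the floxed ones, and was not called (limma adjusted p = 0.123). Ccr9 and Klk1 differed by 0.04 and 0.06. The defining marker Siglech was at 7.68 ± 0.36 on deleted and 7.83 ± 0.29 on floxed arrays and was not called. Of 12 T and NK cell markers 3 rose (Cd3e, Gzma and Klrd1) and 0 fell, while their sums overlapped (2788 to 4821 against 3363 to 6174). Gzma and Klrd1 were within the background range in floxed leukemias apart from Gzma on array 6, and Ncr1 was in that range in every group. The call of Klrd1 was lost without floxed array 5 (limma adjusted p = 0.0531). Of 9 macrophage markers C1qc rose, with overlapping sums of 1518 to 3093 and 1351 to 2276, a call lost without deleted array 4 or 6, floxed array 4 or 5 or Hoxa9-Meis1 array 1 or 2 (0.0555 to 0.114). Of 4 monocyte markers F13a1 rose and Ccr2 fell, the latter 3.27-fold (limma adjusted p = 0.0314), a call lost without deleted array 5 or 6 or floxed array 5 or 6 (0.0606 to 0.120). Of 6 markers of late neutrophils Cxcr2 rose 3.72-fold (limma adjusted p = 0.00398), with no array left out ending the call. Of 7 B cell markers Cd79b fell and 0 rose, although 5 of the 7 differences were above 0. Of 7 stromal and endothelial markers Pecam1 fell and 0 rose, with 4 of the 7 differences above 0. Of 4 erythroid markers 0 were called by limma (0 with an unadjusted p under 0.05). The call of Pecam1 was lost without deleted array 4 or 5 or floxed array 5 or 6 (0.0668 to 0.0996). In these bulk samples fewer cells of a type and less RNA per cell cannot be told apart, and the part of such cells in the differences of Mx1, Ifnar2 and Gbp6 was not tested.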

How the data were processed

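The deposited table gave 1 intensity per probe set on each of 9 arrays. They came from RMA, per the submitters' processing notes; its version is not given in the sources used here. The values ran from 4.60 to 32082, a linear scale, so log2(intensity + 1) was taken, which slightly understates changes of dim genes. RMA makes the arrays' distributions alike, so a change of most genes one way would be removed. The medians of the deleted arrays nonetheless stayed below those of the other groups. Arrays have no sequencing depth, and their number limits the precision.

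Of 45101 probe sets, 34958 had 1 gene symbol, 932 several and 9211 none listed. Each of 18194 genes was represented by its brightest probe set. The 3 groups were fitted together, a mean for each, with limma 3.58.1 in R 4.3.3 (two-sided, Benjamini-Hochberg over all genes), and the fit was tested on simulated data. Groups and replicate numbers came from the labels, except that Hoxa9-Meis1 arrays were numbered in accession order. The labels do not name separate mice, so p-values reflect only the spread among these samples, part of which may be technical. Values on every array are given for members called in at least 1 comparison and for the 5 of largest difference in each; other pathway genes are named where called, and further genes were named after their values were seen. The members and lists were chosen with earlier results of these data known. The labels state no pairing, so none was used in the main fit. Deviations from the group mean had r of 0.03, 0.05 and 0.01 between deleted and floxed arrays numbered 4, 5 and 6. Between arrays of unlike number r ran from -0.13 to 0.08. With 3 arrays per group these values cannot exclude that arrays of the same number are related. Promoter sequences are from RefSeq, build GRCm38.p6. Alternatives changed the pseudocount, filter, probe set rule, normalization, groups in the fit, variance model and arrays.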

Additional observations from a re-analysis of the deposited data

How the results depend on the processing

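The median difference of the members ran from -0.33 to -0.11 with 1 array left out and from -0.23 to -0.07 under the other settings in deleted minus floxed; from -0.16 to 0.07 and from -0.12 to -0.05 in floxed minus Hoxa9-Meis1; and from -0.42 to -0.16 and from -0.30 to -0.16 in deleted minus Hoxa9-Meis1. Counts of called members moved more. In deleted minus floxed, 2 members called lower became 1 with a pseudocount of 32 (Mx1 lost), averaged probe sets or median centring (Ifnar2 lost). Fitting these 2 groups alone also gave 1, but Mx1 and Ifnar2 were both lost and Oasl1 was called. The 1 called higher became 0 where genes with a mean under 6 were left out, since that filter removes Gbp6. With the replicate number as a block on the 6 MLL-AF9 arrays, 1 was called lower (Oasl1, with Mx1 and Ifnar2 lost). In that fit 0 were called higher (Gbp6 at limma adjusted p = 0.0506). Whether those numbers pair samples is not stated in the labels. With 1 array left out the counts were 0 to 3 lower and 1 higher throughout. In floxed minus Hoxa9-Meis1 the 2 higher became 1 with averaged probe sets, quantile normalization or only the 2 groups, and the 2 lower became 1 with averaged probe sets or only the 2 groups; with 1 array left out both ran from 0 to 2. In deleted minus Hoxa9-Meis1 the 6 lower became 3 with averaged probe sets or median centring and 10 with array weights, and ran from 1 to 7 with 1 array left out, while the higher ran from 2 to 3. Leaving out deleted array 6 and floxed array 5 together, chosen after seeing the data, gave 0 lower in deleted minus floxed, 1 higher in floxed minus Hoxa9-Meis1 and 2 lower in deleted minus Hoxa9-Meis1. The causes of these moves were not tested, beyond the smaller number of arrays or genes. Among the called genes and the 5 members of largest difference in each comparison, 0 differences changed sign. The signs of the other members' differences were not followed. Median centring moved the median of all genes to 0.12 in deleted minus floxed and 0.13 in deleted minus Hoxa9-Meis1, and the calls there to 766 higher and 578 lower, and 2252 and 968, from 585 and 661, and 1687 and 1134. Members near the array background cannot show a decrease.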
